A study of Mus musculus with 89 samples.

Results

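The genes described here are the mouse nuclear receptor genes other than the Esrr, Nr5a and Nr0b1 genes, chosen by symbol, and there were 40 of them among 54146 genes measured. Nuclear receptors are transcription factors (TFs) that bind DNA through paired zinc fingers and carry a ligand-binding domain, which in many members is occupied by a small lipophilic molecule such as retinoic acid, thyroid hormone, a steroid or a fatty acid, and which in orphan members has no settled ligand. Many of them bind as homodimers or as heterodimers with a retinoid X receptor on repeats of a short half-site, and recruit coactivators or corepressors. Esrrb and Nr5a2, the receptors removed in this study, instead bind a single extended half-site. In embryonic stem cells (ESCs), retinoid receptors are known as mediators of differentiation by retinoic acid, and Nr6a1 as a repressor of Pou5f1, which encodes Oct4.

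RNA-seq was available for 20 libraries of mouse ESCs, 8 grown in FCS/LIF (fetal calf serum and the cytokine LIF; 2 replicates for each of 4 states) and 12 in 2i/LIF (inhibitors of ERK and GSK3 signalling with LIF; 3 replicates for each state). EKOiE cells lack endogenous Esrrb and carry an Esrrb transgene that is expressed under doxycycline (Dox), and all libraries derive from them. The +E+N state is EKOiE cells with 1 µg/ml of Dox, and the −E state is the same cells 2 days after Dox was removed. EKOiE NrKO cells have in addition both Nr5a2 alleles disrupted in exon 4, which encodes the start of the DNA-binding domain, and gave the −N state with Dox and the −E−N state 2 days after its removal. The loss of Nr5a2 and other properties of the NrKO line, a clone made from EKOiE cells, cannot be told apart, nor can the loss of Esrrb and the removal of Dox itself, nor the medium and the culture batch. The comparisons of −E with +E+N and of −E−N with −N are each made within a line. The study describes the replicates as independent experiments, while the labels do not say what was separate between them.

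Library totals were 36514172 to 45443379 counts in FCS/LIF and 26653035 to 32526534 in 2i/LIF. Replicates of each state differed beyond sampling noise (chi-square of 4.28 to 28.3 per degree of freedom). In 2i/LIF the replicate 1 libraries stood apart from replicates 2 and 3 in +E+N, −E and −N, while in −E−N it was replicate 3, at 28.3 and 22.8 from the others against 9.26 between those. Esrrb had 163 to 249 TPM (transcript abundance scaled to length and depth) in +E+N and 38.9 to 40.1 in −E in FCS/LIF, and 187 to 273 against 113 to 133 in 2i/LIF. Counts per gene do not separate transcripts of the transgene from those of the disrupted endogenous alleles. Nr5a2 had 12.9 to 13.7 TPM in +E+N and 8.42 in both −N libraries in FCS/LIF, and 19.7 to 24.5 against 18.9 to 22.3 in 2i/LIF, where the ranges overlapped; a disruption within exon 4 need not lower the total of the gene, so these values do not check the knockout. The study reports, from qPCR within the deleted stretch, no wild-type Nr5a2 transcript in its NrKO clones. It also reports Esrrb binding as ablated in 2i/LIF by 2 days without Dox. The summed TPM of 10 ESC marker genes, Esrrb among them, was 8423 to 8470.3 in +E+N and 4805 to 5219.9 in −E−N in FCS/LIF, and 7846 to 8337 against 2893 to 3912 in 2i/LIF. In these bulk libraries, fewer cells that express a gene and less RNA of it per cell cannot be told apart.

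Compared per length in TPM, nuclear receptor genes spanned from absent to well expressed, and 15 of the 40 had a mean of at least 1 TPM in each of the 8 groups. Rarg, Nr1h2 and Rxrb had the highest means over all groups, at 37.9 to 63.6 TPM for Rarg, 42.8 to 58.3 for Nr1h2 and 30.3 to 45.5 for Rxrb, and their order changed between groups. In −E−N of 2i/LIF, Nr6a1 lay above Rxrb, at 43.4 against 33.1 TPM. Nr6a1, Nr2f6, Nr4a1, Rara and Ppard had means of at least 10 TPM in every group, which makes 8 genes with the 3 above. Nr1d2, Rxra, Thra, Nr2c2, Nr3c1, Nr1d1 and Nr2c1 followed. A further 6 genes lay below 1 TPM in some groups and above it in others: Pparg, Rarb, Rora, Nr2f2, Nr1h3 and Vdr. The remaining 19 genes had a mean below 1 TPM in all groups, among them both estrogen receptors, the progesterone receptor, the bile acid and xenobiotic sensors Nr1h4, Nr1i2 and Nr1i3, and both Hnf4 genes.

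**Figure D1:**
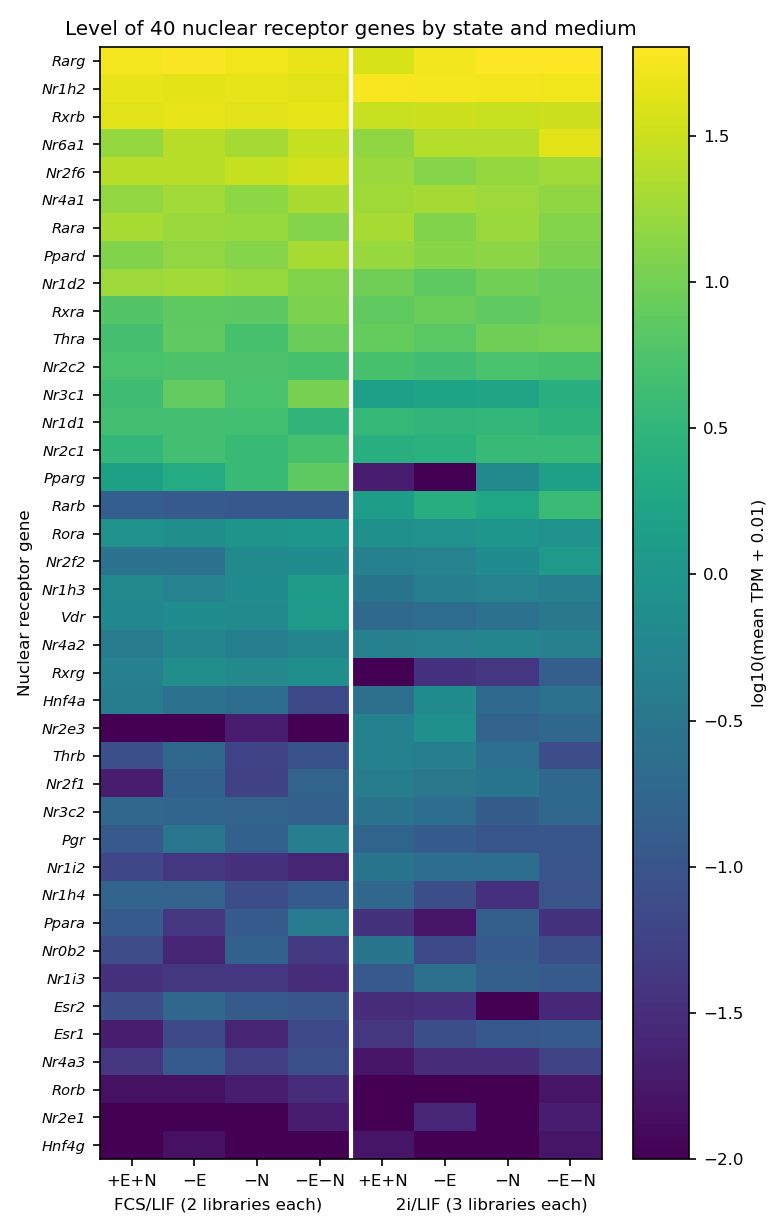
Mean TPM of the 40 genes (rows, ordered by their mean over groups) in the 4 states of each medium (columns; 2 libraries each in FCS/LIF, 3 in 2i/LIF), as log10(mean TPM + 0.01) in colour. Rows from Rarg to Nr2c1 are above 1 TPM in all columns, while Pparg, Rarb, Rxrg and Nr2e3 differ by colour between the media.

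Tests were run with edgeR's quasi-likelihood test on the whole table, on genes that reached 20 counts in each replicate of 1 or more states, and a gene was called when its Benjamini-Hochberg adjusted p was below 0.01 and its fold change above 1.5. Of the 40 genes, 25 passed this filter in FCS/LIF and 23 in 2i/LIF, 21 of them in both. Rxrg, Nr1h3, Nr3c2 and Pgr passed in FCS/LIF alone, and Rarb and Thrb in 2i/LIF alone. The 13 that passed in neither were Hnf4g, Nr2e1, Rorb, Nr0b2, Esr1, Nr1h4, Ppara, Nr1i3, Nr4a3, Esr2, Nr2f1, Nr1i2 and Nr2e3, whose highest count in any library ranged from 1 for Hnf4g to 37 for Nr2e3. Some genes passed through a part of the states: in FCS/LIF Hnf4a through 1 state and Pgr through 2, and in 2i/LIF Vdr through 1, Thrb, Pparg and Hnf4a through 2 and Nr4a2 through 3. Pgr in FCS/LIF and Pparg and Thrb in 2i/LIF passed through the states in which they were high, so that their place among the tested genes is tied to their change.

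Within FCS/LIF, 2 of the 25 tested genes (Nr3c1 and Thra) were called in the comparison of −E with +E+N, both higher, where 5.76% of all genes were called, 3.23% higher and 2.53% lower. None of the 25 was called in −N against +E+N, where edgeR called 0.173% of all genes (0.0767% higher and 0.0959% lower). At the level of single tests 6 had an unadjusted p below 0.05, and DESeq2 called Pparg. The share of all genes at that unadjusted limit was not counted. Such counts, here and for the lists below, therefore do not set members or lists apart from other genes. In −E−N against +E+N, 9 were called, 7 higher (Pparg, Pgr, Nr2f2, Nr3c1, Rxra, Nr6a1 and Thra) and 2 lower (Rara and Nr1d1), where 18.8% of all genes were called, 12.4% higher and 6.4% lower. The median log2 fold change of the 25 was 0.38 there, against 0 over all genes tested. In −E−N against −N, which compares the NrKO line with and without Dox, 2 were called (Nr3c1 higher and Nr1d1 lower), against 10.1% of all genes, 6.57% higher and 3.49% lower. Among the 25 genes, 16 had a log2 fold change above 0 in −E−N against +E+N, and 14 in −E. The medians over all genes tested were 0 and −0.00251 in these comparisons.

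Within 2i/LIF, Rara was the 1 gene of 23 called in −E, and it was lower than in +E+N, where 1.55% of all genes were called, 0.439% higher and 1.11% lower. In −N against +E+N, 2 were called higher (Pparg and Rarg), against 3.65% of all genes, 1.61% higher and 2.04% lower. In −E−N against +E+N, 5 were called, 3 higher (Pparg, Nr6a1 and Rarg) and 2 lower (Thrb and Rara), against 18.6% of all genes (9.06% higher and 9.56% lower), with a median log2 fold change of 0.20 against 0.01 over all genes. None was called in −E−N against −N by edgeR, where 6.76% of all genes were called, 3.39% higher and 3.36% lower. Of the 23 genes 9 had an unadjusted p below 0.05, and DESeq2 called 0. Same-numbered libraries deviated together in these comparisons, with an exception for −E−N and +E+N. There numbers 1 and 3 deviated together (correlations of 0.412 and 0.392) and number 2 did not (−0.00273). When the number was entered as a block, −E had 3 called genes (Rara lower, Rarg and Nr6a1 higher), −N had 5 (Pparg, Rarg, Nr2c1 and Nr6a1 higher, Thrb lower), and the comparison of −E−N with −N had 3 (Pparg, Rarb and Nr6a1 higher). Calls over all genes increased under the block too, to 4.15%, 7.77% and 11.3% in the same order. In −E−N against +E+N the block gave 9 called members, with 22.9% of all genes called. Over the 8 comparisons of states 11 of the 27 genes tested in either medium (40.7%) were called at least once, against 29.2% of all genes tested. Of the 21 tested in both media, 3 (Pparg, Rara and Nr6a1; 14.3%) were called in both, against 8.66% of all genes.

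**Figure D2:**
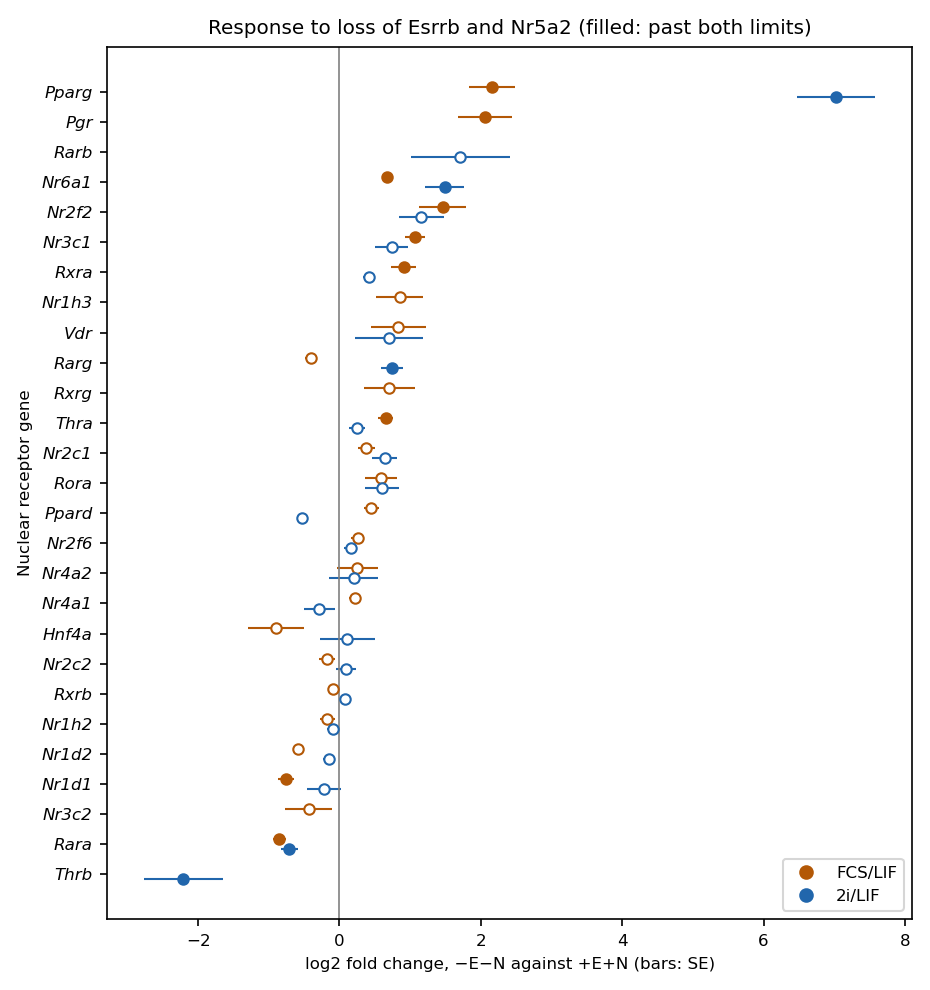
Log2 fold change of −E−N against +E+N (horizontal axis; bars show the SE) for the 27 nuclear receptor genes tested in FCS/LIF (orange) or 2i/LIF (blue), filled where the gene passed both limits. Pparg lies farthest to the right in 2i/LIF at a fitted 7.03, Thrb farthest to the left at −2.21, and Rarg and Ppard lie on opposite sides of 0 in the media.

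The retinoic acid receptors Rara, Rarb and Rarg bind DNA with a retinoid X receptor and turn from repressors to activators when retinoic acid binds. Rara (ENSMUSG00000037992, chr11:98927818-98974942, plus strand) fell in both media when both TFs were lost. In FCS/LIF, Rara had 46.1 and 49.4 CPM in the +E+N libraries, 39.0 and 36.7 for −E, 37.9 and 38.8 for −N and 29.3 and 24.3 for −E−N, where CPM are counts scaled to library size with TMM factors over the 20 libraries. Gene positions are those of mm10 with the GENCODE annotation. In 2i/LIF, Rara had 51.2, 44.0 and 46.5 CPM in the +E+N libraries, 31.6, 32.1 and 25.3 for −E, 41.2, 41.4 and 43.1 for −N and 30.5, 31.8 and 23.4 for −E−N. In both media every −E−N library lay below every +E+N library, and the log2 fold change was −0.85 ± 0.0910 (SE, adjusted p = 1.23e-04) in FCS/LIF. The log2 fold change of Rara in 2i/LIF was −0.71 ± 0.118 (SE, adjusted p = 4.23e-04), and neither call was lost when any 1 library was left out. In 2i/LIF Rara was also lower in −E than in +E+N without overlap, at a log2 fold change of −0.67 ± 0.117 (SE, adjusted p = 0.00613). This call was lost without any 1 of the 6 +E+N and −E libraries or without −N replicate 2 (−0.72 to −0.57, adjusted p up to 0.0269). In −N of 2i/LIF the log2 fold change of Rara was −0.18 ± 0.116 (SE, adjusted p = 0.385), which did not pass.

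Rarg (ENSMUSG00000001288, chr15:102234938-102257517, minus strand) was the most abundant retinoic acid receptor in every group by mean TPM, and it differed in direction between the media. In 2i/LIF, Rarg had 67.3, 78.6 and 94.7 CPM in the +E+N libraries, 109, 114 and 140.2 for −E, 110.1, 139 and 155 for −N and 141, 143 and 114 for −E−N. Each −N and −E−N library exceeded each +E+N library, and the log2 fold change was 0.74 ± 0.153 (SE, adjusted p = 0.00883) for −N. For −E−N the log2 fold change of Rarg was 0.74 ± 0.153 (SE, adjusted p = 0.00206). The call in −N was lost without any 1 of 8 libraries (+E+N replicates 1 and 2, −E 1 and 2, −N 2 and 3, −E−N 1 and 2; 0.63 to 0.88, adjusted p up to 0.0393), and that in −E−N without +E+N replicate 2 or −E−N replicate 2 (0.62 to 0.88, adjusted p up to 0.0102). With the replicate block, −E in 2i/LIF was called as well (log2 fold change 0.60, adjusted p = 0.00521). In FCS/LIF, Rarg had 119 and 117 CPM in the +E+N libraries, 119 and 117 for −E, 110.0 and 102 for −N and 97.7 and 82.7 for −E−N. There −E−N was the lowest state, and its log2 fold change of −0.41 ± 0.0780 (SE, adjusted p = 0.00277) passed the p limit but not the fold limit. The response of Rarg to both losses differed between the media, by −1.11 ± 0.214 (SE, adjusted p = 0.00122) on the log2 scale as FCS/LIF minus 2i/LIF. This difference missed the limit without −E−N replicate 2 of FCS/LIF (adjusted p = 0.0105).

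Rarb (ENSMUSG00000017491, chr14:16430839-16819156, minus strand), the receptor gene that retinoic acid itself induces, was low in FCS/LIF. There Rarb had 3 and 8 counts in the +E+N libraries, 13 and 4 for −E, 11 and 7 for −N and 6 and 10 for −E−N. In 2i/LIF, Rarb had 0.707, 2.49 and 3.90 CPM in the +E+N libraries, 2.14, 4.03 and 7.27 for −E, 0.908, 2.22 and 6.44 for −N and 4.64, 6.29 and 11.9 for −E−N, and the replicates of each state spread by over 2-fold. Rarb of +E+N cells was higher in 2i/LIF than in FCS/LIF in all libraries, at a log2 fold change of 4.10 ± 1.02 (SE, adjusted p = 0.00224), a call that was lost without either FCS/LIF library (3.53 to 4.83, adjusted p up to 0.0296). In each numbered 2i/LIF replicate, −E−N was the highest of the 4 states. Without the block the log2 fold change of Rarb in −E−N against −N was 1.28 ± 0.688 (SE, adjusted p = 0.224), and with it 1.49, adjusted p = 5.71e-04, which passed. Of the exon sequence of Rarb, 34.1% overlaps exons of Top2b on the opposite strand, and since the strand setting of the counting is not stated, reads of the genes cannot be told apart there.

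Among the retinoid X receptors, the shared dimer partners of many members, Rxrb was the most abundant in each group by mean TPM. It was called in none of the comparisons of states, with log2 fold changes of −0.09 to 0.11 against +E+N over both media. Rxra (ENSMUSG00000015846, chr2:27676440-27762957, plus strand) rose in −E−N of FCS/LIF, where the libraries had 18.5 and 22.3 CPM in the +E+N libraries, 22.6 and 23.6 for −E, 20.6 and 28.7 for −N and 33.3 and 44.2 for −E−N. Both −E−N libraries exceeded the other 6, and the log2 fold change was 0.91 ± 0.178 (SE, adjusted p = 0.00311). The call was lost without +E+N replicate 1 or −E−N replicate 2 (0.68 to 1.08, adjusted p up to 0.0292). In 2i/LIF, Rxra had 25.5, 24.2 and 25.6 CPM in the +E+N libraries, 29.9, 25.6 and 30.1 for −E, 23.7, 22.7 and 22.9 for −N and 33.4, 30.5 and 35.8 for −E−N. Here too the 3 −E−N libraries were above the rest, and the log2 fold change of 0.42 ± 0.0863 (SE, adjusted p = 0.00199) passed the p limit but not the fold limit. Rxrg (ENSMUSG00000015843, chr1:167598384-167639623, plus strand) had 25 and 25 counts in the +E+N libraries, 48 and 42 for −E, 31 and 47 for −N and 26 and 54 for −E−N in FCS/LIF and 0, 0 and 0 counts in the +E+N libraries, 2, 1 and 0 for −E, 1, 0 and 2 for −N and 2, 8 and 4 for −E−N in 2i/LIF. Compared in +E+N, Rxrg was at least 5.89-fold lower in 2i/LIF, taking a floor of 3 counts per library, with adjusted p = 3.40e-05.

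**Figure D3:**
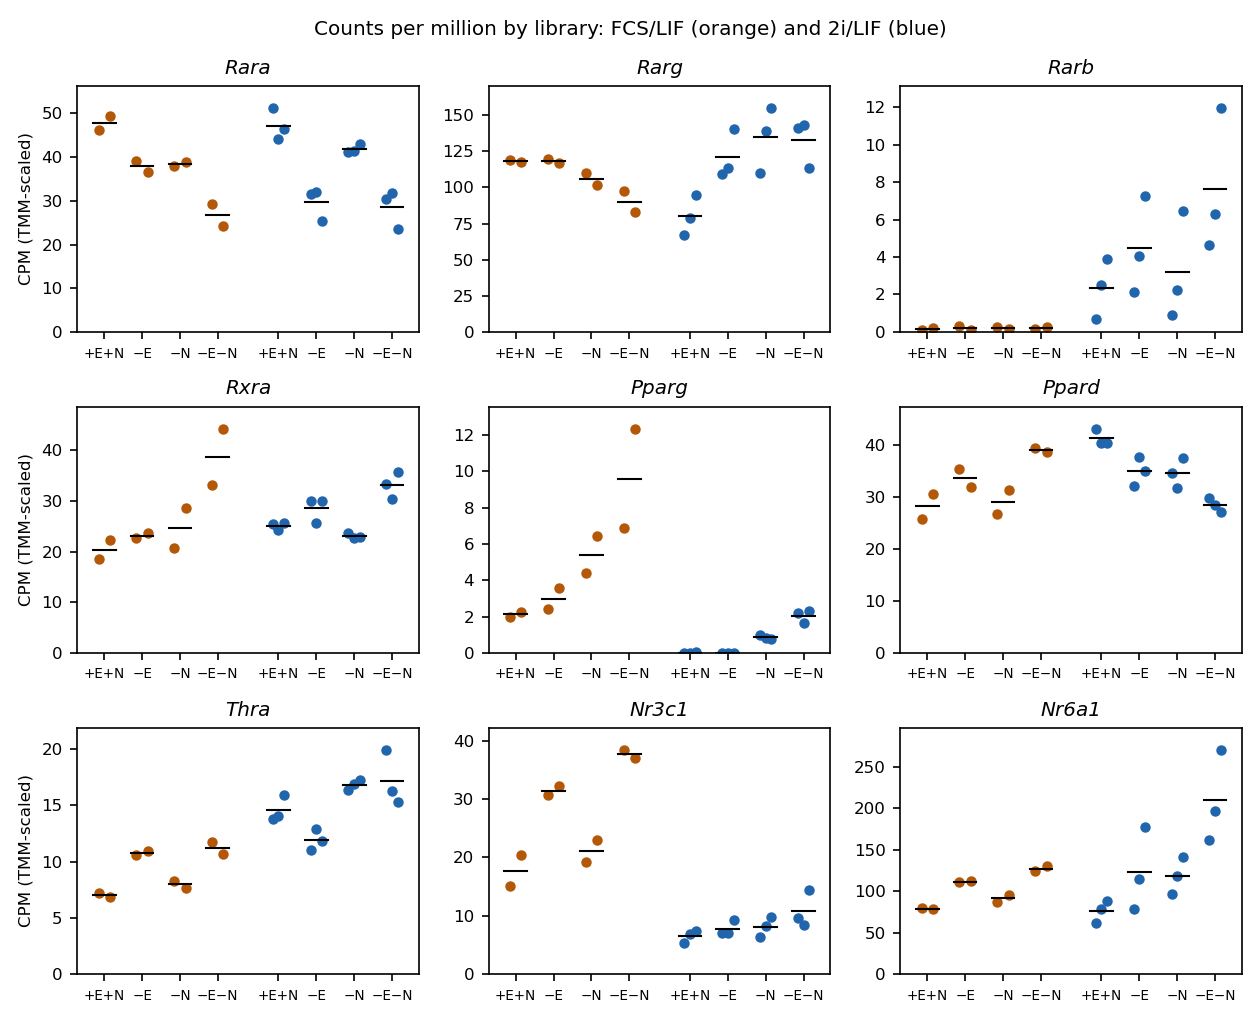
CPM with TMM scaling (vertical axes, each from 0) of 9 nuclear receptor genes in each library (points; orange FCS/LIF, blue 2i/LIF) with the group mean (line). Rara falls and Nr6a1 rises in −E−N of both media, Pparg is close to 0 in +E+N and −E of 2i/LIF, and Rarb is close to 0 in all FCS/LIF libraries.

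Genes that retinoic acid is known to induce, a list of 20 that holds no member of the family, had more calls upwards than downwards when both TFs were lost. This list and those that follow were chosen with earlier results of these data known. Their counts beside the shares of all genes are therefore descriptions. In 2i/LIF, 10 of 16 tested were higher and 0 lower in −E−N against +E+N, against 9.06% and 9.56% of all genes, with a median log2 fold change of 1.92 against 0.01 over all genes. The largest were Hoxb1, an anterior Hox gene, with 1 to 7 counts in +E+N and 164 to 938 in −E−N (7.22 ± 1.19), Zfp703, a transcriptional repressor, with 74 to 152 counts in +E+N and 1283 to 4661 in −E−N (4.50 ± 0.535), Crabp2, which carries retinoic acid to the nucleus, with 76 to 100 counts in +E+N and 818 to 1826 in −E−N (3.75 ± 0.314), and Stra6, a receptor for retinol-binding protein, with 77 to 153 counts in +E+N and 800 to 2063 in −E−N (3.40 ± 0.437). In all 4 the ranges of the groups were apart. Values in parentheses are log2 fold changes ± SE, here and for the lists that follow, and each passed both limits. In FCS/LIF, 8 of 18 were higher and 2 lower, against 12.4% and 6.4% of all genes, with a median of 0.89. These shares of all genes are the background for each list that follows. For all lists, the background in −E was 3.23% higher and 2.53% lower in FCS/LIF, and 0.439% and 1.11% in 2i/LIF. In −N it was 0.0767% and 0.0959%, and 1.61% and 2.04%. In −E−N against −N it was 6.57% and 3.49%, and 3.39% and 3.36%. Between the media it was 17.2% higher and 17.5% lower in 2i/LIF. In −E−N of FCS/LIF, Meis2 (2.40 ± 0.212), Cdx1 (2.13 ± 0.418) and Zfp703 (1.86 ± 0.265) were higher and Stra8 (−2.23 ± 0.328) lower. In −E the list had 1 higher and 1 lower in FCS/LIF and 2 higher and 0 lower in 2i/LIF, and in −N edgeR called 0 in FCS/LIF, with 5 at an unadjusted p below 0.05, and 3 higher and 0 lower in 2i/LIF. Comparing −E−N with −N, it had 3 higher and 1 lower in FCS/LIF and 7 higher and 0 lower in 2i/LIF. In the +E+N state 7 of 20 were higher and 6 lower in 2i/LIF than in FCS/LIF, where 17.2% of all genes were higher and 17.5% lower, led by Cdx1, a caudal homeobox gene, with 4 and 9 counts in FCS/LIF and 2515 to 3480 in 2i/LIF (9.33 ± 0.236). Sums of some marker lists of other cell types differed in the same libraries, and others overlapped. The summed TPM of mesoderm markers was 3.49 to 5.87 in +E+N and 12.8 to 22.8 in −E−N of 2i/LIF, that of neural markers 30.5 to 40.3 and 13.2 to 16.6, and that of 10 trophectoderm markers 44.4 to 55.9 and 223 to 365. Sums of endoderm markers overlapped, at 7.37 to 9.12 TPM in +E+N and 6.57 to 8.79 in −E−N of 2i/LIF. Those of fibroblast markers overlapped too, at 2.93 to 6.2 and 3.03 to 5.52. Members of a list did not all move with its sum. The neural marker Pax6 was higher in −E−N, at 1.33 to 2.52 TPM against 0.52 to 0.78. Of the mesoderm markers, Fst had 8.1 to 11.5 TPM against 1.24 to 1.98, while Mixl1 overlapped, at 0.4 to 0.7 against 0.26 to 0.62. The part of such cells in these counts was not tested. Nor was the part of retinoic acid itself in the differences of this list between states or between media.

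Half-site words were searched on both strands of RefSeq promoter windows around start sites in GRCm38.p6, which were given for 37 of the 40 genes in 53 windows. The forms TCAAGGTCA and TCAAGGCCA, which differ at the seventh base that separates preferred Esrrb and Nr5a2 sites, were in the windows of 0 of 37 genes, against 0.466% and 0.696% of 27025 genes. The wider word TCAAGGNCA was in 1, Rara, against 1.86% of genes. AAGGTCA was in 3 (Nr6a1, Rxra and Rxrg), or 8.11%, against 5.38% of genes. AGGTCA, which is contained in AAGGTCA and TCAAGGTCA, was in 9, or 24.3%, against 18.1%. Members had more windows per gene, with 53 for 37 genes against 32851 for 27025, which raises their share by gene. By window, AAGGTCA was in 3 of 53 against 4.72% of all windows. AGGTCA was in 10 of 53 against 16.3%. Rarb alone held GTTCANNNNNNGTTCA, a direct repeat of the kind retinoic acid receptors bind, found in 25 of 32851 windows, and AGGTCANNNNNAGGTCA was in 0 members, against 0.0111% of genes. For 4 members that were called in a comparison, 150 bases upstream of a start site are shown 5′ to 3′ on the strand of the gene, with the word in capitals. These start sites lie inside the gene, downstream of its first annotated start. The Rarb stretch is chr14:16575477-16575626, minus strand, and ends at the base before the start site.
Rarb: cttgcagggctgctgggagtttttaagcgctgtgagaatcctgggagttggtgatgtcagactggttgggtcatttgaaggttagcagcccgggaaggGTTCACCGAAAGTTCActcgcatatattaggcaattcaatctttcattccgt
The Rara stretch is chr11:98964622-98964771, plus strand, bases −250 to −101 from the start site, with TCAAGGNCA on the other strand.
Rara: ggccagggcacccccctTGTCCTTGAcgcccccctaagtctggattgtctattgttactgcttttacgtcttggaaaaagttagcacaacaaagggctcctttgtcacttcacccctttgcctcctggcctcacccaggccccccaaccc
The Nr6a1 stretch is chr2:38784516-38784665, minus strand, ending at the base before the start site, with AAGGTCA on the other strand.
Nr6a1: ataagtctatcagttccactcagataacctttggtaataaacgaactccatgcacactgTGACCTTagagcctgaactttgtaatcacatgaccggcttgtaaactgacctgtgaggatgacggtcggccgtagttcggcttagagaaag
The Rxra stretch is chr2:27709142-27709291, plus strand, also ending at the base before the start site.
Rxra: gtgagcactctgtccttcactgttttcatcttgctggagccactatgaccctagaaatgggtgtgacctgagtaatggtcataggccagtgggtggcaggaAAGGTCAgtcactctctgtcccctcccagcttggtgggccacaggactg
A word is a description of the letters in a window, and its absence says nothing of binding elsewhere in a gene.

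The thyroid hormone receptors are Thra and Thrb. Thra (ENSMUSG00000058756, chr11:98740638-98769006, plus strand) rose in −E of FCS/LIF and was not called in −E of 2i/LIF. In FCS/LIF, Thra had 7.24 and 6.86 CPM in the +E+N libraries, 10.6 and 10.9 for −E, 8.28 and 7.64 for −N and 11.8 and 10.7 for −E−N, and all 4 libraries without Dox lay above the 4 with it. The log2 fold change in −E was 0.59 ± 0.111 (SE, adjusted p = 0.00693), and that in −E−N was 0.65 ± 0.111 (SE, adjusted p = 0.00149). The first call was lost without any 1 of the +E+N, −E or −E−N libraries (0.55 to 0.63, adjusted p up to 0.0655), and the second without −E−N replicate 1 or +E+N replicate 2 (0.57 to 0.71, adjusted p up to 0.0157). In 2i/LIF, Thra had 13.7, 14.1 and 15.9 CPM in the +E+N libraries, 11.0, 12.9 and 11.8 for −E, 16.3, 16.9 and 17.2 for −N and 19.9, 16.3 and 15.3 for −E−N. There the −E libraries were below all +E+N libraries, with a log2 fold change of −0.29 ± 0.113 (SE, adjusted p = 0.165), which did not pass. The response of Thra to −E differed between the media by 0.90 ± 0.167 (SE, adjusted p = 0.00626) on the log2 scale. That call was lost without any of 11 of the 20 libraries: +E+N, −E and −E−N replicates 1 and 2 of FCS/LIF and −E replicates 1 and 3, +E+N 2 and 3 and −N 2 of 2i/LIF (0.83 to 0.96, adjusted p up to 0.0463). Thra of +E+N cells was higher in 2i/LIF in all libraries (1.05 ± 0.122, adjusted p = 1.33e-06). Thra and Nr1d1 overlap tail to tail on opposite strands over 263 bp, 5.70% of Thra and 8.55% of Nr1d1 exon sequence.

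Thrb (ENSMUSG00000021779, chr14:17660261-18038090, plus strand) was a low gene, with 28, 60 and 58 counts in the +E+N libraries, 38, 70 and 59 for −E, 3, 26 and 20 for −N and 10, 12 and 10 for −E−N in 2i/LIF. All −E−N libraries had fewer counts than any +E+N library, and the log2 fold change was −2.21 ± 0.559 (SE, adjusted p = 0.00715). The call was lost without any 1 of 7 libraries (+E+N replicates 2 and 3, −E 2 and 3, −E−N 1, 2 and 3; −2.52 to −1.98, adjusted p up to 0.0293). With the block, Thrb was also called lower in −N (−1.55, adjusted p = 0.00550). In FCS/LIF, Thrb had 12 and 21 counts in the +E+N libraries, 13 and 17 for −E, 12 and 10 for −N and 9 and 15 for −E−N, and in the +E+N state it was higher in 2i/LIF by 2.08 ± 0.552 (SE, adjusted p = 0.00364). This call was lost without either FCS/LIF +E+N library or 2i/LIF +E+N replicate 2 or 3 (1.81 to 2.42, adjusted p up to 0.0454). The vitamin D receptor Vdr was tested in both media and called in none of the comparisons.

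The peroxisome proliferator-activated receptors sense fatty acids and their derivatives; Pparg is the master TF of fat cells and is also needed in the placenta. Pparg (ENSMUSG00000000440, chr6:115360951-115490399, plus strand) had the largest fitted change among the tested members in −E−N against +E+N of both media, in FCS/LIF within its SE of that of Pgr. In FCS/LIF, Pparg had 1.99 and 2.27 CPM in the +E+N libraries, 2.39 and 3.58 for −E, 4.38 and 6.45 for −N and 6.89 and 12.3 for −E−N. Both −N and both −E−N libraries exceeded all +E+N and −E libraries, and the log2 fold change in −E−N was 2.15 ± 0.327 (SE, adjusted p = 8.08e-04), or 1.66 to 2.50, adjusted p up to 0.00634 over the fits that left out a library. In −N of FCS/LIF the log2 fold change was 1.33 ± 0.329 (SE, adjusted p = 0.0842), which did not pass. In 2i/LIF, Pparg had 0, 0 and 1 counts in the +E+N libraries, 0, 0 and 0 for −E, 27, 23 and 21 for −N and 67, 47 and 68 for −E−N. It was thus at or below 1 count in all 6 libraries of the EKOiE line and at 21 or more in all 6 of the NrKO line. Against a floor of 3 counts per library it was at least 8.38-fold higher in −N (adjusted p = 2.81e-04) and at least 19.7-fold higher in −E−N (adjusted p = 5.37e-06), and both calls were kept without any 1 library. The fitted log2 values, 5.78 and 7.03, depend on the prior count and are not bounds. Within the NrKO line of 2i/LIF, −E−N exceeded −N by 1.25 ± 0.305 (SE, adjusted p = 0.0163), and with the block by 1.24, adjusted p = 0.00608, which passed. Compared in +E+N, Pparg was at least 20.5-fold lower in 2i/LIF than in FCS/LIF (adjusted p = 1.07e-07). The fitted response to −E−N was smaller in FCS/LIF than in 2i/LIF, by −4.91 ± 0.808 (SE, adjusted p = 5.04e-04), but with limma on log2(TPM + 1) the difference was 0.44 with an adjusted p of 0.212.

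Pparg is expressed in trophectoderm, the outer layer of the embryo that gives rise to the placenta, and the summed level of trophectoderm markers differed along with that of Pparg. The summed TPM of 10 trophectoderm marker genes, all 10 measured and none at 0 throughout a group, was 301 to 357 in +E+N, 428 to 579 in −E, 607 to 849 in −N and 1241 to 1883 in −E−N of FCS/LIF. In 2i/LIF it was 44.4 to 55.9 in +E+N, 40.7 to 53.0 in −E, 96.2 to 102 in −N and 223 to 365 in −E−N. Of the 10 genes, Cdx2 had 0.380 to 1.41 TPM in +E+N and 22.9 to 30.6 in −E−N of 2i/LIF, the keratin gene Krt18 3.44 to 5.53 and 75.4 to 128, and Hand1 0 to 0.03 and 0.05 to 0.13. Eomes was lower there, with 2.54 to 4.62 TPM in +E+N and 0.840 to 0.960 in −E−N. In −E−N of FCS/LIF, Krt18 alone made up 501 to 782 TPM of the sum. Ascl2 changed little in FCS/LIF, with 23.3 to 24.1 TPM in +E+N and 24.9 to 26.8 in −E−N. The part of such cells in the level of Pparg was not tested.

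Ppard (ENSMUSG00000002250, chr17:28232700-28301474, plus strand), which is widely expressed, differed in the direction of its response between the media. In FCS/LIF, Ppard had 25.7 and 30.6 CPM in the +E+N libraries, 35.4 and 31.8 for −E, 26.7 and 31.2 for −N and 39.4 and 38.7 for −E−N. In 2i/LIF, Ppard had 43.0, 40.4 and 40.4 CPM in the +E+N libraries, 32.2, 37.6 and 35.0 for −E, 34.6, 31.7 and 37.4 for −N and 29.7, 28.5 and 27.0 for −E−N. The −E−N libraries lay above all +E+N libraries in FCS/LIF and below them in 2i/LIF. The log2 fold changes were 0.45 ± 0.106 (SE, adjusted p = 0.00786) in FCS/LIF and −0.52 ± 0.0796 (SE, adjusted p = 2.24e-04) in 2i/LIF, each past the p limit and within the fold limit. Their difference, 1.01 ± 0.138 (SE, adjusted p = 6.40e-05), was called and was kept without any 1 of the 20 libraries (0.88 to 1.13, adjusted p up to 7.73e-04). Ppara, the receptor for fibrates, had at most 15 counts in any library.

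Known target genes of the PPARs, largely of fatty acid oxidation, had more calls downwards than upwards. In FCS/LIF, 1 of 14 tested was higher and 6 were lower in −E−N against +E+N, with a median log2 fold change of −0.50 against 0 over all genes. Plin2, which coats lipid droplets, was higher there (1.50 ± 0.186), and the uncoupling protein gene Ucp2 (−1.29 ± 0.107), Angptl4, an inhibitor of lipoprotein lipase (−1.09 ± 0.123), and Slc25a20, the carnitine carrier of mitochondria (−0.96 ± 0.201), were lower. In 2i/LIF, 1 of 14 was higher and 5 were lower, with a median of −0.41. Cpt1a, the entry enzyme of fatty acids into mitochondria (−2.18 ± 0.201), Ucp2 (−1.67 ± 0.151), Cpt1b (−1.43 ± 0.230) and Slc25a20 were lower there. In −E, 3 were lower and 0 higher in FCS/LIF and 5 lower and 0 higher in 2i/LIF. In −N edgeR called 0 in either medium, while 7 of the 14 in FCS/LIF and 8 in 2i/LIF had an unadjusted p below 0.05. Within the NrKO line (−E−N against −N), 1 was higher and 5 lower in FCS/LIF and 0 higher and 3 lower in 2i/LIF. Between +E+N cells of the media, 9 of 14 were higher and 1 lower in 2i/LIF than in FCS/LIF, against 17.2% and 17.5% of all genes, with Cpt1a at 517 and 718 counts in FCS/LIF and 3934 to 5501 in 2i/LIF (3.41 ± 0.228). Most of these genes also respond to other regulators.

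Of the sterol and bile acid sensors, Nr1h2 (LXRβ) was expressed in all groups and Nr1h3 (LXRα) was below or near 1 TPM, and both had no call in any comparison of states. The log2 fold changes of Nr1h2 against +E+N were −0.17 to 0.00 over both media. Nr1h2 of +E+N cells was higher in 2i/LIF by 0.45 ± 0.107 (SE, adjusted p = 0.00165), within the fold limit. Liver X receptor target genes had 2 higher and 2 lower of 11 tested in −E−N against +E+N in FCS/LIF, with a median log2 fold change of 0.17, and 0 higher and 1 lower in 2i/LIF, with a median of 0.16. Lpl (1.01 ± 0.193) and Pltp (0.61 ± 0.132), which act on lipoproteins, were higher in FCS/LIF, and the cholesterol exporters Abca1 (−0.93 ± 0.132) and Abcg1 (−0.61 ± 0.118) were lower; Abcg1 was the gene lower in 2i/LIF (−1.33 ± 0.233). In −E, 1 was lower in FCS/LIF and 0 were called in 2i/LIF, in −N 0 were called in either medium, and in −E−N against −N 0 were called in FCS/LIF and 1 lower in 2i/LIF. At an unadjusted p below 0.05 there were 3 and 2 genes in −N, 2 in −E of 2i/LIF and 5 in −E−N against −N of FCS/LIF. Between the media 7 were higher and 1 lower in 2i/LIF, led by the desaturase gene Scd1 (2.58 ± 0.170). Nr1h4 (FXR), Nr1i2 (PXR) and Nr1i3 (CAR), which act mainly in liver and gut, did not pass the filter, and 74.9% of the exon sequence of Nr1i3 overlaps Tomm40l on the opposite strand.

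Nr1d1 and Nr1d2 (REV-ERBα and β) are heme-binding repressors of the circadian clock. Nr1d1 (ENSMUSG00000020889, chr11:98767932-98775333, minus strand) fell in −E−N of FCS/LIF, where it had 9.41 and 9.98 CPM in the +E+N libraries, 9.57 and 8.68 for −E, 9.02 and 8.76 for −N and 5.71 and 5.91 for −E−N. Both −E−N libraries were below the other 6, and the log2 fold change was −0.76 ± 0.114 (SE, adjusted p = 7.84e-04) against +E+N. Against −N the log2 fold change of Nr1d1 was −0.61 ± 0.114 (SE, adjusted p = 0.00435), a call lost when any 1 library of −N or −E−N was left out (−0.66 to −0.60, adjusted p up to 0.0255). In 2i/LIF, Nr1d1 had 8.90, 7.58 and 5.36 CPM in the +E+N libraries, 7.47, 7.66 and 6.13 for −E, 9.37, 6.65 and 5.69 for −N and 6.41, 7.53 and 4.67 for −E−N, and −E−N overlapped +E+N (−0.22 ± 0.236, adjusted p = 0.492). Nr1d2 (ENSMUSG00000021775, chr14:18204054-18239127, minus strand) had 52.6 and 50.5 CPM in the +E+N libraries, 53.5 and 49.7 for −E, 48.5 and 45.5 for −N and 37.1 and 32.6 for −E−N in FCS/LIF. It was lowest in −E−N as well, at −0.58 ± 0.0780 (SE, adjusted p = 4.20e-04), which passed the p limit alone. In 2i/LIF its +E+N libraries had 31.7, 28.6 and 27.0 CPM, all below those of FCS/LIF, with a log2 fold change of −0.83 ± 0.0843 (SE, adjusted p = 2.98e-07). The clock activator Rora was called in none of the comparisons, and Rorb had at most 4 counts.

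Of 15 other clock genes measured, edgeR called 2 higher and 2 lower of 14 tested in −E−N against +E+N in FCS/LIF, with a median log2 fold change of −0.16. The repressors Bhlhe40 (1.45 ± 0.142) and Bhlhe41 (1.06 ± 0.173) were higher, and Ciart (−1.30 ± 0.111) and Hlf (−1.12 ± 0.244) lower. In 2i/LIF edgeR called 0 of 13, with 6 at an unadjusted p below 0.05, and a median of −0.26. In −E and in −N, 0 were called in either medium, with 4 and 3 in FCS/LIF and 3 and 2 in 2i/LIF at an unadjusted p below 0.05. In −E−N against −N, 1 was higher and 1 lower in FCS/LIF and 0 were called in 2i/LIF, with 1 at an unadjusted p below 0.05. In the +E+N state 2 of 14 were higher and 5 lower in 2i/LIF than in FCS/LIF, among them Per2 with 106 and 152 counts in FCS/LIF and 8 to 10 in 2i/LIF (−3.31 ± 0.315).

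Among the steroid receptors, Nr3c1 (ENSMUSG00000024431), the glucocorticoid receptor, rose without Dox in FCS/LIF. In FCS/LIF, Nr3c1 had 15.0 and 20.4 CPM in the +E+N libraries, 30.7 and 32.2 for −E, 19.3 and 22.9 for −N and 38.4 and 37.0 for −E−N. All 4 libraries without Dox lay above the 4 with Dox. The log2 fold change was 0.81 ± 0.136 (SE, adjusted p = 0.00428) in −E. In −E−N the log2 fold change of Nr3c1 was 1.07 ± 0.136 (SE, adjusted p = 3.34e-04) against +E+N and 0.84 ± 0.135 (SE, adjusted p = 0.00217) against −N. The call in −E was lost without +E+N replicate 1, −E replicate 1 or 2 or −E−N replicate 1 (0.61 to 1.05, adjusted p up to 0.0385), and that against −N without −N replicate 1 or −E−N replicate 1 or 2 (0.72 to 0.97, adjusted p up to 0.0176), while that of −E−N against +E+N was kept without any 1 library. In 2i/LIF, Nr3c1 had 5.33, 6.88 and 7.42 CPM in the +E+N libraries, 7.04, 7.09 and 9.21 for −E, 6.32, 8.27 and 9.74 for −N and 9.67, 8.34 and 14.3 for −E−N. The 3 −E−N libraries there lay above the 3 +E+N libraries, and the log2 fold change of 0.74 ± 0.228 (SE, adjusted p = 0.0211) did not pass. Nr3c1 of +E+N cells was lower in 2i/LIF than in FCS/LIF in all libraries (−1.44 ± 0.215, adjusted p = 2.19e-05).

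Pgr (ENSMUSG00000031870, chr9:8899833-8968611, plus strand), the progesterone receptor, had 11 and 23 counts in the +E+N libraries, 50 and 55 for −E, 17 and 40 for −N and 65 and 73 for −E−N in FCS/LIF. All libraries without Dox had more counts than those with it, and the log2 fold change in −E−N was 2.06 ± 0.383 (SE, adjusted p = 0.00237). The call was lost without +E+N replicate 1 or either −E−N library (1.71 to 2.58, adjusted p up to 0.0173). In 2i/LIF the counts of Pgr were between 2 and 22. The mineralocorticoid receptor Nr3c2 was tested in FCS/LIF and not called, and the estrogen receptors Esr1 and Esr2 had at most 11 and 20 counts. Glucocorticoid and thyroid hormone response genes had 2 higher and 3 lower of 10 tested in −E−N against +E+N in FCS/LIF, with a median log2 fold change of −0.07, and 0 higher and 3 lower in 2i/LIF, with a median of −0.32. Dio3, which inactivates thyroid hormone (2.58 ± 0.229), and the phosphatase gene Dusp1 (1.04 ± 0.0917) were higher in FCS/LIF, and Klf15 (−1.87 ± 0.122) and the kinase gene Sgk1 (−1.23 ± 0.145) lower. In 2i/LIF, Thrsp (−2.36 ± 0.510), Sgk1 (−0.94 ± 0.121) and Fkbp5, a chaperone partner of Nr3c1 (−0.76 ± 0.136), were lower. In −E, 1 was lower in FCS/LIF and 0 were called in 2i/LIF, in −N 0 in FCS/LIF and 1 lower in 2i/LIF, and in −E−N against −N 1 higher and 1 lower in FCS/LIF and 0 in 2i/LIF. Where none was called, 3 (−E in 2i/LIF), 4 (−N in FCS/LIF) and 4 (−E−N against −N in 2i/LIF) had an unadjusted p below 0.05. Of 11 tested between the media, 2 were higher and 1 lower in 2i/LIF.

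Among the orphan receptors of the Nr2 group, Nr2f2 (ENSMUSG00000030551, chr7:70351944-70366735, minus strand), also called COUP-TFII, rose in −E−N of FCS/LIF. It had 27 and 31 counts in the +E+N libraries, 20 and 32 for −E, 52 and 99 for −N and 69 and 87 for −E−N. All 4 NrKO libraries had more counts than the 4 EKOiE libraries, and the log2 fold change in −E−N was 1.46 ± 0.332 (SE, adjusted p = 0.00650), a call lost when any 1 library of either state was left out (1.32 to 1.57, adjusted p up to 0.0459). That in −N was 1.24 ± 0.333 (SE, adjusted p = 0.101). In 2i/LIF, Nr2f2 had 49, 28 and 37 counts in the +E+N libraries, 40, 37 and 26 for −E, 32, 67 and 50 for −N and 64, 86 and 104 for −E−N, and its log2 fold change in −E−N of 1.16 ± 0.314 (SE, adjusted p = 0.0106) missed the limit. A noncoding gene on the opposite strand, B130024G19Rik, shares 643 bp with the exons of Nr2f2. Nr2f1 (COUP-TFI) and Nr2e3 did not pass the filter, and their values were singled out after they had been seen, as were those of Hnf4a. Nr2f1 had 0 to 2 counts in +E+N and 7 to 11 in −E−N of FCS/LIF, at least 3.14-fold higher against a floor of 3 counts per library, and 13 to 20 counts in +E+N of 2i/LIF, at least 7.81-fold above FCS/LIF. Nr2e3, known from photoreceptors, had at most 1 count in the 8 FCS/LIF libraries and 11 to 19 counts in +E+N of 2i/LIF, at least 6.88-fold higher; in 2i/LIF it had 14, 11 and 19 counts in the +E+N libraries, 19, 35 and 37 for −E, 3, 3 and 6 for −N and 2, 9 and 12 for −E−N.

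Nr2c1 (ENSMUSG00000005897, chr10:94148023-94197211, plus strand), also called TR2, had 6.84, 6.21 and 9.23 CPM in the +E+N libraries, 7.58, 7.81 and 9.46 for −E, 8.93, 11.3 and 13.6 for −N and 10.9, 11.3 and 12.1 for −E−N in 2i/LIF, and with the replicate block it was called higher in −N (0.59, adjusted p = 0.00339), against 0.60 ± 0.182 (SE, adjusted p = 0.0574) without it. Nr2c2 (TR4), its dimer partner, was called in none of the comparisons, and 30.7% of its exon sequence overlaps Mrps25 on the opposite strand. Nr2f6 was not called either; 54.4% of its exon sequence overlaps Ocel1 on the opposite strand. Hnf4a, a liver and gut TF, had 19, 27 and 29 counts in the +E+N libraries, 26, 65 and 73 for −E, 14, 21 and 20 for −N and 23, 24 and 35 for −E−N in 2i/LIF. Each of the 3 numbered replicates had more counts in −E than in +E+N, and the log2 fold change of 1.15 ± 0.374 (SE, adjusted p = 0.0978) did not pass.

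Nr4a1, Nr4a2 and Nr4a3 are immediate early genes whose proteins act without a known ligand. Nr4a1 had means of 14.5 to 20.9 TPM over the 8 groups and Nr4a2 of 0.345 to 0.54, and neither was called in any comparison; Nr4a3 had at most 19 counts. Other immediate early genes had 5 higher and 1 lower of 10 tested in −E−N against +E+N in FCS/LIF, with a median log2 fold change of 0.76, and 1 higher and 0 lower of 8 in 2i/LIF, with a median of 0.26. Jun was the largest in both media (2.15 ± 0.0759 and 2.35 ± 0.280), and in FCS/LIF Fos (1.36 ± 0.191) and Atf3 (1.25 ± 0.256) were higher and Spry4, an inhibitor of ERK signalling (−1.14 ± 0.0859), lower. In −E, 2 were higher in FCS/LIF and 0 called in 2i/LIF, in −N 1 was higher in FCS/LIF and 0 called in 2i/LIF, and in −E−N against −N 3 were higher and 1 lower in FCS/LIF and 1 higher in 2i/LIF. In 2i/LIF 2 genes in −E and 1 in −N had an unadjusted p below 0.05. Between the media 7 of 10 were lower and 0 higher in 2i/LIF, among them Egr1 with 911 and 1199 counts in FCS/LIF and 7 to 15 in 2i/LIF (−6.08 ± 0.379), while Nr4a1 had a log2 difference of 0.24 ± 0.214 (SE, adjusted p = 0.340).

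Nr6a1 (ENSMUSG00000063972, chr2:38723370-38927688, minus strand), also known as GCNF, binds the extended half-site as a homodimer and represses Pou5f1 in differentiating cells. In FCS/LIF, Nr6a1 had 79.8 and 78.0 CPM in the +E+N libraries, 111 and 112 for −E, 87.3 and 95.2 for −N and 124 and 131 for −E−N. The 4 libraries without Dox lay above the 4 with it, and the log2 fold change in −E−N was 0.67 ± 0.0619 (SE, adjusted p = 5.66e-05). The log2 fold change in −E, 0.48 ± 0.0619 (SE, adjusted p = 0.00116), passed the p limit and not the fold limit. In 2i/LIF, Nr6a1 had 61.2, 78.3 and 87.6 CPM in the +E+N libraries, 78.7, 115 and 177 for −E, 96.4, 118 and 142 for −N and 162, 197 and 270.1 for −E−N. All −E−N libraries exceeded all +E+N libraries, and the log2 fold change was 1.49 ± 0.270 (SE, adjusted p = 8.12e-04). Leaving out −E−N replicate 3, the library that stood apart, kept the call, as did leaving out any other library (1.26 to 1.65, adjusted p up to 0.00455). In each numbered replicate +E+N was the lowest and −E−N the highest state. With the block, Nr6a1 was called higher in −E (0.66, adjusted p = 5.27e-04), in −N (0.64, adjusted p = 3.95e-04) and in −E−N against −N (0.83, adjusted p = 2.66e-05), none of which passed without it. Nr0b2 (SHP), a receptor without a DNA-binding domain that inhibits Nr5a2 in liver, had at most 10 counts in any library.

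Coregulators are the cofactors through which these receptors act. Of 27 tested, 2 were higher and 3 lower in −E−N against +E+N in FCS/LIF, a share close to the 18.8% of all genes called there, with a median log2 fold change of −0.07, and edgeR called 0 in 2i/LIF, where 11 had an unadjusted p below 0.05 and the median was −0.04. The corepressor Nrip1, which is also in the retinoic acid list, was higher in FCS/LIF (1.04 ± 0.218), as was Ncoa2 (0.64 ± 0.111), and the acetyltransferase genes Kat2b (−1.01 ± 0.133) and Ncoa3 (−0.84 ± 0.0713) were lower; Ncoa3 encodes a known partner of Esrrb. In −E and −N, 0 were called in either medium, with 7 and 5 in FCS/LIF and 7 and 4 in 2i/LIF at an unadjusted p below 0.05. Within the NrKO line, 2 were lower in FCS/LIF and 0 were called in 2i/LIF, where 8 had an unadjusted p below 0.05. Between the media 5 were higher and 4 lower in 2i/LIF, led by Ncoa7 (−1.98 ± 0.204).

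**Figure D4:**
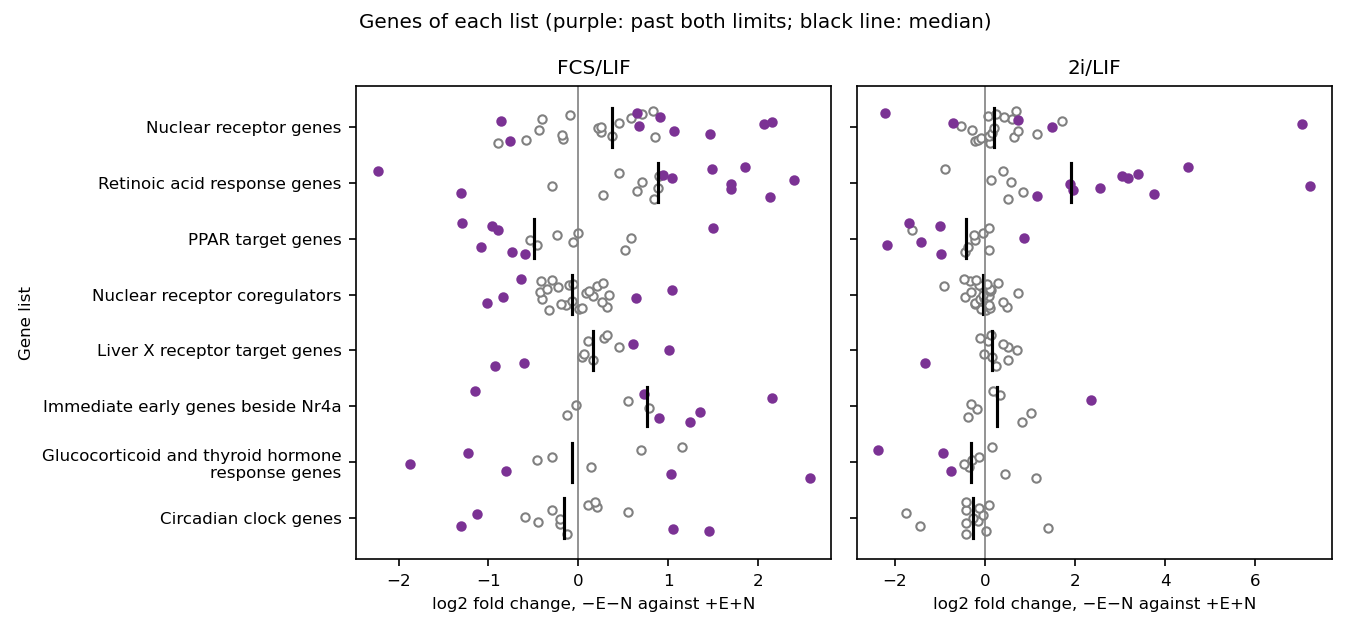
Log2 fold change of −E−N against +E+N (horizontal axes) for each tested gene of 7 lists and of the 40 nuclear receptor genes, in FCS/LIF (left) and 2i/LIF (right); purple points passed both limits and black lines are medians. The retinoic acid response genes have the highest median in both media (0.89 and 1.92), and the PPAR target genes the lowest (−0.50 and −0.41). The lists were chosen with earlier results of these data known.

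Whether the losses of Esrrb and Nr5a2 added on the log2 scale was tested by their interaction, which subtracts the separate responses to −E and to −N from the joint response, and called at an adjusted p below 0.01. None of the 25 genes was called in FCS/LIF and none of the 23 in 2i/LIF with edgeR or DESeq2, where edgeR called 0.032% of all genes, all lower, in FCS/LIF and 0.307% in 2i/LIF, 0.0975% higher and 0.209% lower; 3 members in each medium had an unadjusted p below 0.05. Between the media, +E+N cells differed in 7 of 27 tested members, 3 higher in 2i/LIF (Rarb, Thrb and Thra) and 4 lower (Rxrg, Pparg, Nr3c1 and Nr1d2), where 34.7% of all genes were called, 17.2% higher and 17.5% lower. Rarb, Thrb and Rxrg entered this fit through the medium in which they were high, so that their calls are tied to the filter. The response to −E differed between media for 1 of 27 (Thra), against 1.06% of all genes, 0.588% with a higher and 0.471% with a lower value in FCS/LIF. The response to −E−N differed for 3 (Pparg and Rarg lower in FCS/LIF, Ppard higher), against 13.2% of all genes, 7.3% higher and 5.93% lower. For −N none was called by edgeR, against 0.743% of all genes (0.409% higher and 0.334% lower), with 4 at an unadjusted p below 0.05, while DESeq2 called 2 (Pparg and Rarg). The comparisons of states within a medium share the +E+N libraries.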

How the data were processed

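RNA-seq of 20 of the 89 samples of the series was used, and the ChIP-seq samples were not analysed here. Per the labels and the study's methods, stranded poly-A RNA was sequenced from paired ends, aligned to mm10 with STAR and quantified with RSEM. Versions and the strand setting of the counting are not given in the sources used here. The authors deposited RSEM expected counts (estimated counts, which need not be whole) and TPM per gene. Expected counts were rounded to whole numbers, and 92 spike-in rows, all at 0, were left out of 54238.

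Counts were tested with edgeR 4.0.16 (R 4.3.3; quasi-likelihood, TMM scaling) on all genes passing the filter, 15636 in FCS/LIF and 14355 in 2i/LIF, with the 4 states of a medium in 1 fit. The comparison of media and the differences between media were fitted over the 8 groups together (20 libraries, 16147 genes). SEs are the absolute log2 fold change over the square root of F. Genes were called at an adjusted p below 0.01 and a fold above 1.5, and interactions and differences between media by the adjusted p alone. CPM were scaled over 20 libraries. TPM were averaged as deposited by the authors. The SEs include the estimated spread between replicates, while the floors cover counting error only. At the lower depth in 2i/LIF, 1 count is worth more CPM, so low genes are less precise there.

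The 40 members and the 7 lists of other genes (retinoic acid response, PPAR targets, liver X receptor targets, clock, coregulators, glucocorticoid and thyroid hormone response, immediate early) were chosen with earlier results of these data known. Members called in a comparison were given by library and the others by range. Up to 4 called genes with the largest fold changes were named per list. Nrip1 and Per1 are each in 2 lists.

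Replicate numbers come from the labels. In 2i/LIF, 17 of 18 correlations of the deviations of same-numbered libraries exceeded 0.1 (median 0.441), the exception being −0.00273 for +E+N and −E−N with number 2. Numbers were taken to pair the other comparisons. For +E+N and −E−N, numbers 1 and 3 gave 0.412 and 0.392, so pairing was partial there. The main tests did not use the numbers. The alternatives were DESeq2 1.42.0, DESeq2 size factors in edgeR, no filter on low counts, no fold limit, a replicate block, limma 3.58.1 on log2(TPM + 1) or log2(TPM + 0.1), and leaving out each library. The comparison of −E−N with +E+N in each medium was first run on simulated data with edgeR, DESeq2 and limma at a pseudocount of 1. The other comparisons and settings were not simulated.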

Additional observations from a re-analysis of the deposited data

Results flagged for a closer look

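Responses of 4 nuclear receptor genes differed between the media in a test of the difference itself (edgeR, all 20 libraries, FCS/LIF minus 2i/LIF). The response of Thra to −E differed by 0.90 ± 0.167 (SE, adjusted p = 0.00626) on the log2 scale. For −E−N, the responses of Ppard and Rarg differed by 1.01 ± 0.138 (adjusted p = 6.40e-05) and −1.11 ± 0.214 (adjusted p = 0.00122). That of Pparg differed by −4.91 ± 0.808 (adjusted p = 5.04e-04), a fitted value that depends on the prior count because Pparg had 0, 0 and 1 counts in +E+N of 2i/LIF. Against a floor of 3 counts per library, Pparg was at least 19.7-fold higher in −E−N of 2i/LIF, while in FCS/LIF its log2 fold change was 2.15.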

How the results depend on the processing

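Of the called values given per gene, all 32 kept their direction and their side of the limits with DESeq2, with DESeq2 size factors in edgeR and without the filter on low counts, as did the 25 that could be fitted with the replicate block. With limma 19 were kept on log2(TPM + 1) and 23 on log2(TPM + 0.1). Lost under both were Nr1d1 (both calls), Nr2f2, Nr3c1 in −E, Rarg in −N, Thra in −E and its difference between media, and Thrb (both calls), and on log2(TPM + 1) also Pgr and, between the media, Rarb and Rxrg. The pseudocount shrinks changes of low genes by construction. The difference between media in the response of Pparg to −E−N reversed on log2(TPM + 1), to 0.44 (adjusted p = 0.212), where Pparg in +E+N of 2i/LIF lies below the pseudocount. TPM are not TMM-scaled, and with limma the median of all genes in −E−N against +E+N of FCS/LIF moved to 0.13 or 0.16 and that of −E to 0.11 on log2(TPM + 0.1). The split of all called genes there was 1834 higher and 538 lower on log2(TPM + 1) for −E−N, against 1934 and 1000 with edgeR.

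Counts of called members were small and moved with the settings. Those of all genes moved as well, for example in −N of FCS/LIF from 27 to 548 without the filter and to 264 with DESeq2. In −E−N of 2i/LIF they moved from 2672 to 3192 without the filter and to 2931 with DESeq2. Between the media they moved from 5607 to 6374 without the filter, 7854 without the fold limit and 4274 with limma on log2(TPM + 1). The cause was not tested beyond what each setting does by construction. Without the filter on low counts the called members were 2 (−E in 2i/LIF), 1 (−E−N against −N in 2i/LIF), 5 (−E−N against −N in FCS/LIF), 9 (−E−N in 2i/LIF), 2 (−N in FCS/LIF), 13 (the media), and 2, 5 and 2 for the differences between media in −E, −E−N and −N. All genes called were, in this order, 401, 1290, 2556, 3192, 548 and 6374, and 706, 2973 and 809. With the filter they were 223, 970, 1573, 2672, 27 and 5607, and 171, 2136 and 120. DESeq2 gave 2 members (−E in 2i/LIF), 8 (−E−N in 2i/LIF), 1 (−N in FCS/LIF) and 2 (difference in −N). All genes called with DESeq2 were 447, 2931, 264 and 456 in this order. Without the fold limit there were 2 members (−E−N against −N in 2i/LIF), 6 (the same in FCS/LIF) and 12 (the media). All genes called there were 1354, 2568 and 7854, against 970, 1573 and 5607 with the limit. On log2(TPM + 1) limma gave 1 member in −E of FCS/LIF, 1 in −N and 1 in −E−N against −N of 2i/LIF, 4 between the media and 0 for the difference in −E, and on log2(TPM + 0.1) it gave 1, 1, 1 and 0 for these other than the media. All genes called were 553, 313, 688, 4274 and 280 on log2(TPM + 1). On log2(TPM + 0.1), without the media, they were 609, 309, 682 and 119. With edgeR those of −E in FCS/LIF and −N in 2i/LIF were 901 and 524. With 1 library left out the counts were 0 to 1 in −E, 1 to 2 in −N, 3 to 7 in −E−N and 0 to 2 in −E−N against −N of 2i/LIF. In FCS/LIF they were 0 to 3, 0, 6 to 10 and 0 to 3 in the same order. Between the media they were 7 to 9, with 0 to 1, 0 to 1 and 2 to 4 for the differences in −E, −N and −E−N, and both interactions stayed at 0. A lone library of a group was then assumed to vary like the other groups.

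With the replicate block the counts in 2i/LIF were 3 (−E), 5 (−N), 9 (−E−N) and 3 (−E−N against −N). Of all genes, 4.15%, 7.77%, 22.9% and 11.3% were called in the same order. In FCS/LIF, where 2 numbers are shared, 10 of 12 correlations exceeded 0.1 (the lowest was 0.0921). With 2 replicates the deviations mirror each other, so both numbers gave the same value for each pair of states. All 12 were above 0 and above the value with the other number. Whether the numbers pair libraries there was not tested otherwise, and the main tests left them out. In FCS/LIF the block gave 1 member in −N and 5 in −E−N against −N, against 0 and 2 without it. Of all genes, 1.95% and 13.9% were called with the block, against 0.173% and 10.1% without it. The differences between media had 8 (−E−N) and 2 (−N), with 22.9% and 4.25% of all genes called. The media themselves share no number.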
